A study of Mus musculus with 39 samples.

Results

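The genes described here were 6 genes known to mark tuft cells, Dclk1, Trpm5, Pou2f3, Il25, Rgs13 and Avil, chosen by their names from the 25219 genes of a single-cell RNA sequencing table of 39 mouse crypt cells. All 6 were found in the table. The cells came from mice with the alleles Lgr5-EGFP-Ires-CreERT2 and Rosa-lsl-tdTomato, in which tamoxifen activates a Cre recombinase made under the Lgr5 gene and so switches on a permanent tdTomato label in cells that express Lgr5 at that time, and in their offspring. Tamoxifen was given 24 h before 10 Gy total body irradiation, crypt epithelium was collected 48 h after it, and tdTomato+ Sca1- cells (Sca1- Lgr5-derivatives) were sorted and captured 1 by 1 on a microfluidic chip. All 39 cells belonged to this group. No unirradiated cells and no Sca1+ cells were analysed here, and the labels tied no cell to an animal, so the 39 cells counted as 1 biological sample, no test between cells was made, and each value is that of 1 cell. Cells are named by the number in their titles, cell 79 being PR0549_79_a and cell 96 being PR0549_96_a.

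Tuft cells are rare chemosensory cells of the intestinal epithelium. They carry a brush of stiff microvilli and a signalling pathway shared with taste receptor cells: a G protein-coupled receptor such as the succinate receptor acts through the G protein alpha-gustducin and phospholipase C to release calcium, which opens the cation channel Trpm5. They answer parasites and bacterial metabolites by releasing the cytokine Il25, leukotrienes and prostaglandins, and their formation depends on the transcription factor Pou2f3.

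The levels are given on 2 scales. FPKM is the number of read pairs assigned to a gene, scaled to the length of its transcripts and to the depth of the cell, and so compares genes per length, and the estimated count is the number of read pairs assigned to a gene. A gene counted as detected where it reached 1 FPKM. The cells had 398418 to 3903971 estimated counts on genes (median 3089188) and 2287 to 5779 genes detected (median 4609). Cell 79 had 1466913 estimated counts and 2335 genes detected, and cell 96 had 3064032 and 2988. Genes took 63.5% of the FPKM total in cell 79 and 90.4% in cell 96, against a median of 88.1% over all cells. Cell 9 stood apart with 398418 estimated counts and 33.4% on genes. Of the 8 epithelial markers examined, 7 to 8 were detected in each of the other 37 cells, 7 in cell 96 and 6 in cell 79, in which Krt19 and Cdh1 were at 0. Ly6a, which encodes the Sca1 used for the sort, was at 0 in cells 79 and 96, and was detected in 4 of the other 37 cells, at up to 509 FPKM.

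The tuft cell genes were concentrated in cells 79 and 96. Of the 6 genes, 4 were detected in cell 79 (Dclk1, Trpm5, Rgs13 and Avil), where 18.8% of the 12426 genes detected in at least 1 cell were detected, and 5 in cell 96 (the same 4 and Pou2f3), where 24.0% were. These were the only cells with 2 or more of the genes at 1 FPKM, 2 of 39 or 5.13% (exact 95% binomial interval 0.627% to 17.3%, which covers counting error only). A further 3 cells had 1 of the genes each, and 34 cells had none. The gap between detected and undetected values was wide. Of the 36 values above 0, 12 were at 10.0 FPKM or more and rested on at least 80 estimated counts, and the other 24 were at 0.843 FPKM or less and rested on 1 to 3 counts, so that moving the detection limit anywhere between these values would change no call.

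**Figure D1:**
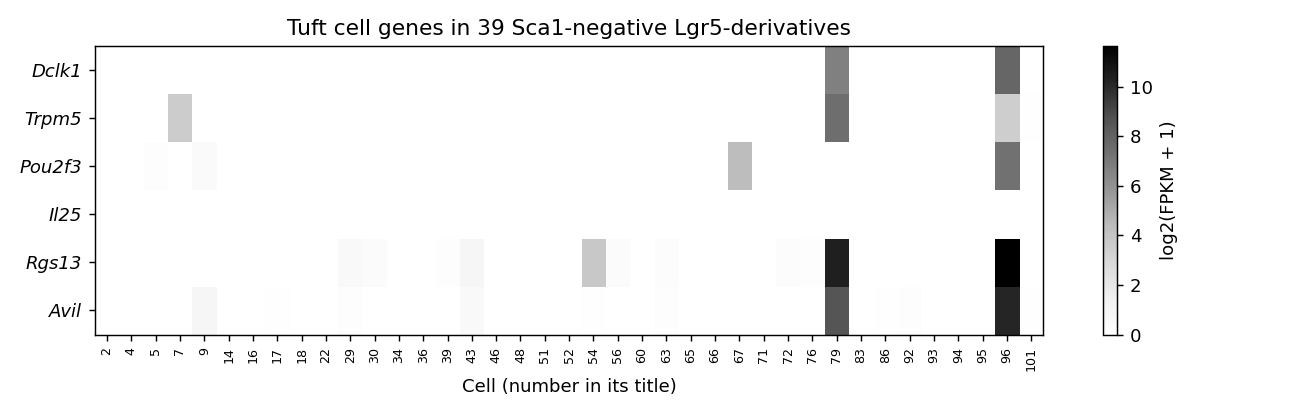
Level of the 6 tuft cell genes (rows) in each of the 39 cells (columns, by cell number), as log2(FPKM + 1) on a grey scale. Cells 79 and 96 hold 4 and 5 of the genes, cells 7, 54 and 67 hold 1 each, and Il25 is at 0 throughout.

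Rgs13, a regulator that speeds the shut-off of G protein signals (Entrez 246709, chr1:144138667-144177372, minus strand, mm10 coordinates as deposited), was the most abundant of the 6. It was at 1368 FPKM (4727 counts) in cell 79 and at 3217 FPKM (16328 counts) in cell 96, where it was the 9th most abundant of all genes. The next highest cell was cell 54, at 12.6 FPKM (80 counts). Of the other 36 cells, 8 had 1 to 3 counts and the rest had 0. Cells 79 and 96 together held 99.7% of the FPKM of this gene summed over all 39 cells.

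Avil encodes advillin, an actin-binding protein of the villin family (Entrez 11567, chr10:127000709-127020994, plus strand). It was at 386 FPKM (2704 counts) in cell 79 and at 1162 FPKM (11948 counts) in cell 96. No other cell reached 1 FPKM, the highest being cell 9 at 0.830 FPKM (3 counts), and 9 of the other 37 cells had 1 to 3 counts.

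Dclk1, the doublecortin-like kinase most used to stain tuft cells (Entrez 13175, chr3:55242526-55539068, plus strand), was at 105 FPKM (3147.5 counts) in cell 79 and at 222 FPKM (9787 counts) in cell 96. The highest of the other 37 cells had 1 count, and 33 of them had 0. This was the cleanest separation among the 6 genes, with 99.97% of the summed FPKM in cells 79 and 96. The level itself is less certain than the separation. The deposited table lists 7 Dclk1 transcripts and a length of 12995 bases, whereas the longest transcript of the gene in GENCODE M21 has 7962, and at that length the same counts would give 171 and 363 FPKM.

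Trpm5, the calcium-activated cation channel at the end of the taste pathway (Entrez 56843, chr7:143071529-143094642, minus strand), ran the other way. It was at 181 FPKM (1833 counts) in cell 79 and at 10.0 FPKM (149 counts) in cell 96, 18.1-fold less. Cell 7 had about the level of cell 96, 11.04 FPKM from 163 counts, with none of the other 5 genes above 0.

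Pou2f3, the transcription factor on which tuft cells depend (Entrez 18988, chr9:43123939-43205755, minus strand), was detected in cell 96 at 162 FPKM (1385.5 counts) and was at 0 in cell 79. The limit that 3 counts would give in cell 79 is 0.515 FPKM, and cell 96 was at 314-fold that value. A 0 in 1 library made without molecular identifiers sets no lower bound on the difference in expression. Cell 67 was at 19.5 FPKM (134 counts), and 2 more cells had 1 to 3 counts.

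Il25, the cytokine through which tuft cells act on immune cells (Entrez 140806, chr14:54932695-54935836, plus strand), had no count in any of the 39 cells. A count of 0 in 39 cells allows a share of up to 7.69% of cells with a read (3 of 39), or up to 9.03% by the exact 95% interval, which limits cells with a read and not cells that express the gene. In a given cell it allows a level in reads of up to 0.638 to 3.56 FPKM, the value of 3 counts at that cell's depth. In cell 79 the limit was 1.22 FPKM.

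Between cells 79 and 96, then, the order of the genes was shared at the top (Rgs13 above Avil) and differed below it. Cell 96 was higher by 2.12-fold for Dclk1, 2.35-fold for Rgs13 and 3.01-fold for Avil, and lower for Trpm5. Cell 96 held the highest value of all 39 cells for 4 of the 6 genes, where 4.31% of the 12426 genes had their highest value in that cell, and cell 79 for Trpm5, where 4.09% did. With 1 cell on each side these ratios have no replicate error, and without molecular identifiers the spread that amplification adds is unknown.

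Against a wider list of tuft genes described next, the 3 cells with 1 tuft cell gene had 10 of 66 genes (cell 7, with Trpm5), 14 (cell 54, with Rgs13) and 9 (cell 67, with Pou2f3), within the 5 to 17 found in the other 37 cells as a whole. Of all 12426 genes, 37.4%, 34.7% and 25.7% were detected in these cells. In cell 54 the detected genes included Alox5ap, Hpgds, Fyb and Lrmp, 4 genes whose median over the other cells was at or near 0. Of the 37, cell 54 held the highest value of Rgs13, Alox5ap (17.1 FPKM), Lrmp (7.42 FPKM) and Fyb (1.75 FPKM), each far below cells 79 and 96. In cell 67 the detected genes included Hpgds.

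The wider list held 66 further genes that tuft cells are known to express. Of these, 42 were detected in cell 79 and 42 in cell 96, 35 of them in both, against 5 to 17 (median 11) in the other 37 cells. Of all 12426 genes, 18.8% were detected in cell 79 and 24.0% in cell 96. These shares of all genes apply to each part of the list below. Krt8, Krt18, Vil1 and Ascl2 were also on the stem cell, epithelial or enterocyte marker lists used below. Setting these 4 aside left 62, of which 39 and 38 were detected in cells 79 and 96 and 3 to 14 (median 8) in the others. This held although cells 79 and 96 had fewer genes detected in all than most cells. The 62 still held genes detected in most of the other 37 cells, such as Anxa4 (37), Sox9 (36), Tuba1a (36) and Cd24a (35). Of the 55 wider-list genes that reached 1 FPKM anywhere, 25 had their highest value in cell 79, 20 in cell 96 and 10 in the other 37 cells, none of which held more than 1. Of the 12426 genes, 4.09% had their highest value in cell 79 and 4.31% in cell 96. Of the 66 genes, 28 were detected in both cells at levels above all the other 37, as were 0.692% of the 12426 genes.

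**Figure D2:**
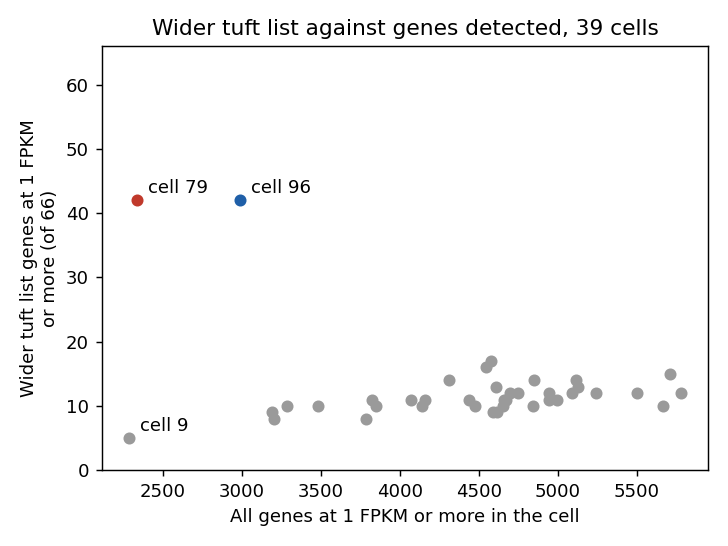
Number of wider-list tuft genes at 1 FPKM or more (vertical, of 66) against the number of all genes at 1 FPKM or more (horizontal) in each of the 39 cells. Cells 79 and 96 stand at 42 with 2335 and 2988 genes, and all other cells (grey) lie at 5 to 17, cell 9 lowest.

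Of 14 genes listed for taste-type signalling, 7 were detected in cell 79 and 7 in cell 96, against 0 to 3 in the others. Of all 12426 genes, 18.8% and 24.0% were detected in cells 79 and 96. The list is wider than the steps from receptor to Trpm5 and includes Pik3r5, Inpp5d, Inpp5j and Atp2a3. Gnat3, which encodes alpha-gustducin, was at 180 FPKM in cell 79 and 216 FPKM in cell 96 and at 0 in the other 37 cells. Pik3r5, a regulatory subunit of phosphoinositide 3-kinase, was at 333 and 249 FPKM, Inpp5d, a phosphatase that opposes that kinase, at 54.3 and 359 FPKM, and the related phosphatase Inpp5j at 15.5 and 68.6 FPKM. None of these reached 1 FPKM in another cell. Sucnr1, the succinate receptor, was at 528 FPKM in cell 79 and at 0 in cell 96. Plcg2, a phospholipase C, was at 103 and 4.67 FPKM, and the calcium pump Atp2a3 at 117 and 87.2 FPKM, both with other cells above 1 FPKM. Itpr2, a calcium release channel, was detected in cell 96 (11.1 FPKM) and was at 0 in cell 79. Itpr3, the related channel, was at 0 in both cells and was detected in 11 of the other 37, at up to 20.1 FPKM. The pathway was not seen whole in either cell. The G protein subunits Gnb3 and Gng13 were at 0 in all 39 cells, and Plcb2, the phospholipase C of taste cells, did not reach 1 FPKM in any (0.926 FPKM in cell 79).

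Of 7 genes of leukotriene and prostaglandin synthesis, 4 were detected in cell 79 and 5 in cell 96, against 0 to 3 in the others. Alox5ap, the protein that presents arachidonic acid to 5-lipoxygenase, was at 3311 and 5443 FPKM, and at most at 17.1 FPKM elsewhere. Alox5, the lipoxygenase itself, was at 216 and 43.3 FPKM, and Ltc4s, leukotriene C4 synthase, at 1136 and 494 FPKM. The 3 genes of the leukotriene branch were thus present together in both cells. Of the pair, only cell 79 had Ptgs1 and only cell 96 had Hpgds. Ptgs1, cyclooxygenase 1, was at 41.7 FPKM in cell 79 and at 0 in the other 38. Hpgds, prostaglandin D synthase, was at 391 FPKM in cell 96, at 0 in cell 79 and detected in 4 of the others. Ptgs2 was at 0 throughout. Pla2g4a, the phospholipase that frees arachidonic acid for both branches, was at 407 FPKM in cell 96 and 0.304 FPKM in cell 79, and was detected in 16 of the other 37 cells, at up to 172 FPKM.

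Of 8 transcription factor genes, 3 were detected in cell 79 and 5 in cell 96, against 1 to 3 in the others. In cell 96, 4 of the 8 had their highest value. Gfi1b, a zinc finger repressor, was at 123 FPKM in cell 79 and 394 FPKM in cell 96, and at most at 6.45 FPKM in the others. Spib, an Ets-family factor, was at 8.09 and 207 FPKM, and 42.7 FPKM in the highest other cell. Sox9, which stem and Paneth cells also express, was at 44.7 and 293 FPKM beside a median of 37.2 FPKM in the other cells. 1810046K07Rik, which encodes a coactivator that binds Pou2f3, was at 252 FPKM in cell 96 and 0.657 FPKM in cell 79, and at most at 0.191 FPKM in the other 37 cells, cell 67 with its Pou2f3 included. Ascl2, a stem cell factor, was detected in cell 96 (28.4 FPKM) and at 0 in cell 79.

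Among 18 genes of immune-type receptors and adaptors, 13 were detected in cell 79 and 11 in cell 96, against 0 to 3 in the others. Lrmp, a membrane protein of the endoplasmic reticulum, was at 1816 and 1957 FPKM, and the adaptor Skap2 at 1636 and 1153 FPKM. Skap2 was also detected in 15 of the other 37 cells, at up to 206 FPKM. The adaptor Fyb was at 106 and 493 FPKM, and the kinase Bmx at 66.3 and 560 FPKM. Lyn, a Src-family kinase, was at 23.6 and 21.8 FPKM, below the highest other cell (81.8 FPKM). Il17rb, which forms the receptor for Il25, was at 6.73 and 83.003 FPKM and under 1 FPKM elsewhere. Several genes differed widely between the pair. Matk, a kinase that restrains Src kinases, was at 994 and 8.24 FPKM, Vav1, an exchange factor for small GTPases, at 151 and 8.07 FPKM, the GTPase Rac2 at 627 and 0.0194 FPKM, and Siglecf, a sialic acid-binding receptor, at 186 and 0 FPKM. In the other direction, Sh2d7, an SH2-domain protein, was at 2.04 and 597 FPKM, and Il13ra1, a subunit of the interleukin 13 receptor, at 0 and 341 FPKM. Il13ra1 was also detected in 11 of the other 37 cells, at up to 36.5 FPKM. Il2rg, the common gamma chain of interleukin receptors, was detected in cell 79 alone (15.3 FPKM). Ptprc, the leukocyte antigen CD45, was at 0 in both cells.

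Structural and other genes were detected in 15 of 19 cases in cell 79 and 14 in cell 96, against 3 to 9 in the others. Krt18, a keratin of simple epithelia, was at 15406 and 5666 FPKM against at most 1965 FPKM elsewhere, and its partner Krt8 at 4209 and 3767 FPKM. Adh1, an alcohol dehydrogenase, was at 11937 and 5689 FPKM with a median of 4.73 FPKM in the other cells, and ranked 3rd and 2nd among all genes. Cd24a, a surface protein high on secretory cells, was at 3416 and 3151 FPKM, and Tuba1a, an alpha-tubulin, at 768 and 3115 FPKM. Hepacam2 was at 562 and 118 FPKM, and was detected in 5 of the other 37 cells, at up to 111 FPKM. Ly6g6f was at 350 and 55.8 FPKM and at 0 in the other 37 cells, Espn, an actin-bundling protein, at 86.8 and 8.82 FPKM, Kctd12 at 89.6 and 59.2 FPKM and Strip2 at 10.5 and 6.81 FPKM. Bpgm, an enzyme of red cell glycolysis, was at 135 and 963 FPKM, and was detected in 18 of the other 37 cells, at up to 139 FPKM. Vil1, the microvillus protein villin, was at 305 and 218 FPKM and Anxa4 at 1641 and 1318 FPKM, both within the range of the other cells. Chat, which makes acetylcholine, was detected in cell 79 alone (14.95 FPKM), Ildr1 was at 33.9 FPKM there and 0 in cell 96, and Gga2 was at 159 FPKM in cell 96 and 0 in cell 79.

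**Figure D3:**
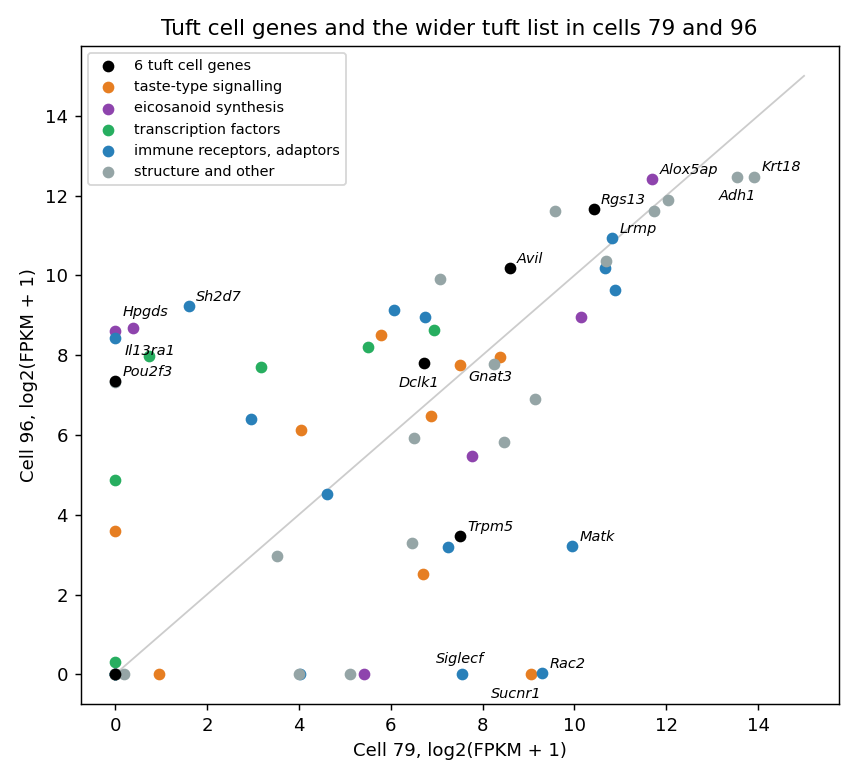
Level of each tuft cell gene and wider-list gene in cell 79 (horizontal) and cell 96 (vertical), as log2(FPKM + 1), coloured by role, with the line of equal level. Alox5ap and Lrmp lie high in both cells, Sucnr1, Siglecf and Rac2 lie on the floor of cell 96, and Hpgds, Il13ra1 and Pou2f3 on that of cell 79.

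Promoter sequence was examined because Pou2f3 binds the octamer ATGCAAAT. RefSeq (GRCm38.p6) gave the 250 bases before a start site for Rgs13, Avil and Trpm5 and for 2 start sites of Dclk1. The octamer, on either strand, was in 0 of these 5 windows, and neither was the form with an open base, ATGCNAAT, which includes it. It was in 526 of all 32851 promoters (1.60%), and the open form in 940 (2.86%). The windows of the most abundant pair of genes are printed here so that this can be read, in lower case since they hold no match.
Rgs13, chr1:144177373-144177622, minus strand: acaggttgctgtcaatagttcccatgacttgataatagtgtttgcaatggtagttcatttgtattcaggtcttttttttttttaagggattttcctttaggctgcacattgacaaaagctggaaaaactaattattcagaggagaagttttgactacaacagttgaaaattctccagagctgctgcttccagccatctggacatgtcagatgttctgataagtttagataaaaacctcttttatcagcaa
Avil, chr10:127000459-127000708, plus strand: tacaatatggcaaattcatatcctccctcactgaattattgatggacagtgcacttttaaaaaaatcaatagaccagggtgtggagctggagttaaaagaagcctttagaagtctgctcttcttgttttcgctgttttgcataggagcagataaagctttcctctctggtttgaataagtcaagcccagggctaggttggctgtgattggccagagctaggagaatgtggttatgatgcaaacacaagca
Within the wider list, 6 of the 54 genes with a promoter in the table (11.1%), or 6 of 67 promoters (8.96%), held the octamer. Of the 6, Itpr3 and Il4ra were at 0 in cells 79 and 96. The other 4 are shown as 60 bases around the match, which is in capitals. The promoter of 1810046K07Rik held 2 matches, the second of them on the opposite strand and so printed as ATTTGCAT, and both are shown.
Sucnr1, chr3:60081795-60081854, plus strand: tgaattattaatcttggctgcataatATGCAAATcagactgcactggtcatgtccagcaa
Hpgds, chr6:65144871-65144930, minus strand: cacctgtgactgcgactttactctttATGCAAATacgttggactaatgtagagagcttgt
1810046K07Rik, chr9:51328971-51329030, minus strand: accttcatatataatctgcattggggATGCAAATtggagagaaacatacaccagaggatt
1810046K07Rik, chr9:51328940-51328999, minus strand: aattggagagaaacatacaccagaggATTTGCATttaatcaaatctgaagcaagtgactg
Kctd12, chr14:102982764-102982823, minus strand: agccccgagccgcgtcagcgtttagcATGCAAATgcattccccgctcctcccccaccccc
The matches began 48 bases before the start site in Sucnr1, 174 in Hpgds, 86 and 55 in 1810046K07Rik and 160 in Kctd12. Hpgds and 1810046K07Rik were at 391 and 252 FPKM in cell 96, where Pou2f3 was detected, and at 0 and 0.657 FPKM in cell 79, where Pou2f3 was under the limit of 0.515 FPKM. Sucnr1 was the reverse, at 528 FPKM in cell 79 and 0 in cell 96, and Kctd12 was detected in both. Hpgds was also detected in 4 of the other 37 cells. They included cell 67, with Pou2f3 at 19.5 FPKM, and cells 54 and 71, with Pou2f3 at 0. A match is a string of letters, and binding was not measured.

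To find which other genes followed the tuft cell genes, 9500 genes were ranked by Pearson's r over the 39 cells between log2(FPKM + 1) of the gene and the mean of the 6. The 15 most alike had r of 0.976 to 0.989, beside a median of -0.12 over all ranked genes. Of the 9500 ranked genes, 41 were on the wider list. Of the 15, 6 were on it (Gnat3, Inpp5d, Fyb, Pik3r5, Lrmp and Inpp5j). The rest of the 15 included Hsbp1l1, Pygl, Ccdc109b, Limd2, Ano7, Dgki, Nrbp2 and Lect2. Pygl, the liver form of glycogen phosphorylase, was at 269 FPKM in cell 79 and 349 FPKM in cell 96. Ccdc109b, a subunit of the mitochondrial calcium uniporter, was at 286 and 337 FPKM, and Dgki, a diacylglycerol kinase, at 159 and 125 FPKM. Lect2, a secreted factor, was at 205 and 116 FPKM, Limd2 at 157 and 170 FPKM, and Ano7, an anoctamin, at 60.6 and 207 FPKM. Hsbp1l1 was at 34.9 and 100.7 FPKM and Nrbp2 at 20.7 and 140 FPKM. None of the 15 exceeded 7.42 FPKM in another cell, and 4 reached 1 FPKM in one. The rest met the ranking's requirement of detection in at least 2 cells through cells 79 and 96 alone. These r values rest on cells 79 and 96, which share the same libraries for every gene, and so describe a pattern of 2 high cells and 37 low ones.

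By a stricter measure, 34 genes (0.274% of 12426) were at least 10 times higher in both cells than in every other cell. They included 3 of the 6 tuft cell genes (Dclk1, Rgs13 and Avil), 16 of the wider list and 15 others.

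Cells 79 and 96 differed from each other in what else they expressed. Cell 79 had 177 genes at least 10 times above every other cell, of which 9 were on the wider list, and cell 96 had 57, of which 4 were. The other 37 cells had 15 to 177 such genes (median 37), the highest being cell 9. In cell 79 the most abundant was Fabp1, the fatty acid-binding protein of liver and enterocytes, at 40997 FPKM, the first gene of that cell, against 0.599 FPKM in cell 96 and at most 1095 FPKM elsewhere. After it came Spink3, a trypsin inhibitor (7113 FPKM), Tm4sf4, a tetraspanin-like membrane protein (5306 FPKM), Cdkn1c, a cell cycle inhibitor (1013 FPKM), Matk, Folr1, a folate receptor (988 FPKM), the histocompatibility gene H2-Q9, which has near-identical neighbours among which reads may be shared (915 FPKM), BC017643 (807 FPKM), Usp18 (699 FPKM) and Rac2. In cell 96 the order was Nelfb, a subunit of the negative elongation factor (964 FPKM), Sh2d7, Hpgds, Upk3a, a uroplakin (339 FPKM), Uba7 (280 FPKM), Zfp3 (257 FPKM), 1810046K07Rik, Rhoc (249 FPKM), Sfxn4 (205 FPKM) and Stoml1 (198 FPKM). Usp18 and Uba7 both act in the ISG15 pathway, and each was high in a different cell.

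Markers of other cell types were counted in the same cells. Mast cell (10 genes), B cell (7), myeloid (9), stromal (8) and neuronal (5) markers were at 0 in cells 79 and 96 without exception, and of 6 T cell markers, Lck alone was detected, at 2.26 FPKM in cell 79. Most of these markers were at 0 in all 39 cells (7 mast cell, 5 B cell, 6 myeloid, 7 stromal, 4 neuronal and 5 T cell). Among 10 enteroendocrine markers, secretin (Sct) was detected in both, at 498 FPKM in cell 79 and 107 FPKM in cell 96, and in 4 of the other 37 cells, at up to 239.8 FPKM. The other 9, Chga and Chgb included, were at 0 in both. Of 11 Paneth markers, 4 and 7 were detected, led by Defa24, of a family of near-identical defensins, at 473 and 1063 FPKM, within the range of the other 37 cells (2 to 10 markers). Of 8 goblet markers, 3 and 2 were detected, against 1 to 7 (median 3) in the other 37 cells. Tff3 was at 85.1 FPKM in cell 79 and Agr2 below 1 FPKM in both. Of 10 enterocyte markers, 4 and 2 were detected, against 2 to 7 (median 5) in the other 37 cells. Apart from Fabp1 and Vil1 the highest in cells 79 and 96 was Apoa4 at 78.1 FPKM in cell 96. Of all genes, 18.8% were detected in cell 79 and 24.0% in cell 96. The summed level of the epithelial list was 20710 and 10043 FPKM, above the highest of the other 37 cells (6341 FPKM), with Krt18 and Krt8 as its largest parts. The summed level of the enterocyte list was 41315 FPKM in cell 79, above the 38.3 to 1766 FPKM of the other 37 cells, and nearly all of it was Fabp1.

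Of 9 stem cell markers, 1 was detected in cell 79 (Lgr5, at 1.63 FPKM) and 3 in cell 96, against 2 to 9 (median 7) in the other 37 cells. Olfm4, the most abundant of them, was at 0.792 FPKM in cell 79 and at 2353 FPKM in cell 96, where the others had a median of 829 FPKM, and with it the summed level of the list in cell 96 (2390 FPKM) was above the median of the others (1384 FPKM). Of 8 cycling markers, only Pcna was detected in either cell, at 308 and 6.79 FPKM, against 1 to 8 markers (median 7) in the others. Both cells had few genes detected in all, with 1 of the other 37 cells below them, and the share of markers detected lay beside that of all genes as follows. In cell 79 it was 11.1% for the stem and 12.5% for the cycling list, against 18.8% of all genes, and in cell 96 33.3% and 12.5%, against 24.0%. The part of the low number of genes in these counts was not tested.

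**Figure D4:**
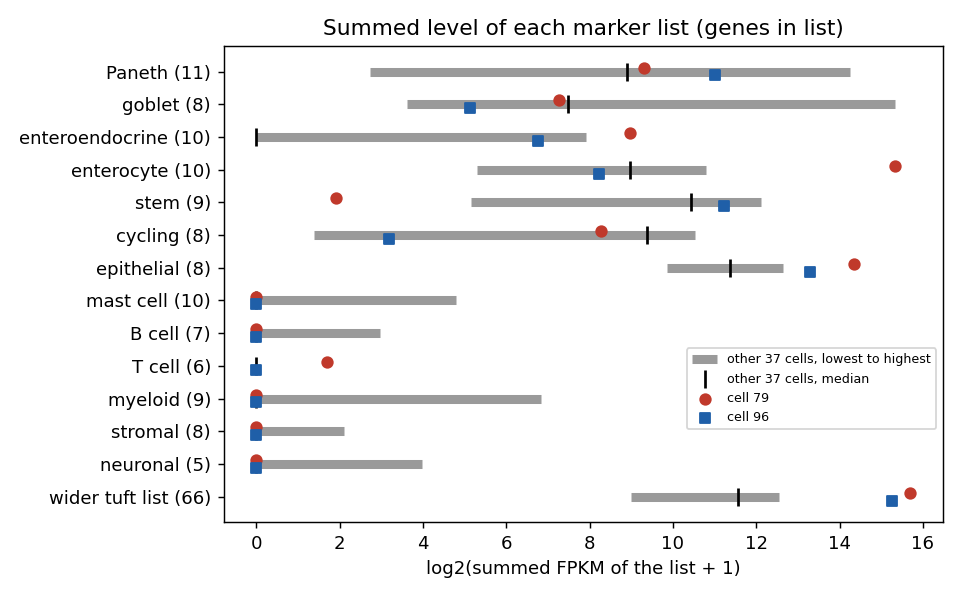
Summed level of each marker list, as log2(summed FPKM + 1), in cell 79 (red circle) and cell 96 (blue square), with the lowest to highest (grey bar) and median (black tick) of the other 37 cells. The wider tuft list and the epithelial list lie above the grey bar in both cells, the enterocyte, enteroendocrine and T cell lists in cell 79, and the stem list of cell 79 lies below it. The mast cell, B cell, myeloid, stromal and neuronal lists lie at 0 in both cells.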

How the data were processed

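Single cells were captured on a Fluidigm C1 chip and full-length cDNA was made with a SMARTer kit, without molecular identifiers, so that read pairs are not independent molecules. The submitters' processing notes name bcl2fastq 1.8.4, TopHat2 2.0.14 and the builds mm10 and GRCm38; the counting tool is not given in the sources used here. The authors deposited FPKM for each gene and cell, together with the estimated count from which FPKM derives (18.5% of the counts above 0 were not whole). Gene starts equalled RefSeq GRCm38 starts for 58.9% of 25113 genes. Capture sites had been inspected under a microscope for single cells, and no doublet caller was run.

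The values were used as deposited. Detection was set at 1 FPKM, limits for a value of 0 at 3 counts, and intervals are exact (Clopper-Pearson) at 95%. Likeness was Pearson's r on log2(FPKM + 1), with a pseudocount of 1 FPKM, over genes whose mean was 1 FPKM or higher and that were detected in at least 2 cells. The ranking was tested on simulated data in which planted genes were set high in cells 79 and 96. This checks the code and not the ranking of the real genes. The 6 genes, cells 79 and 96, the marker lists and the comparisons were chosen with earlier results of these data known. Besides the 6, genes were named if on the wider list and detected in cell 79 or 96, if among the 15 most alike, or if among the 10 most abundant of those at least 10 times above every other cell; list genes at 0 and leading genes of other lists were named after their values were seen. Some genes that these rules pick are not reported here. The wider list was written as 72 names, of which 4 were unmatched and 2 were second names of a listed gene. Python 3.11.15, numpy 2.4.6, pandas 2.3.3 and scipy 1.17.1 were used. Since all cells formed 1 group without named animals, no test was run. Alternatives for the limit, scale, filter and cells are given in the closing section.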

Additional observations from a re-analysis of the deposited data

How the results depend on the processing

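At a limit of 5 FPKM, of 10 estimated counts, or of 3 reads after thinning 38 cells to 600000 reads (cell 9, too shallow, was left out), cells 79 and 96 were again the only cells with 2 or more tuft cell genes. Any value above 0 raised the number to 11 cells, and the cells with Dclk1 to 6, with Pou2f3 to 4, with Rgs13 to 11 and with Avil to 11, through values of 1 to 3 counts. Rescaling to TPM gave 3 cells, adding cell 9. Leaving out cells with under 70% on genes or under 2500 genes removed cells 9 and 79 and left 1 cell, cell 96. The counts for the wider list stayed within 1.5 times of those given under every limit and scale tried for them. The 15 most alike genes depended on the choices: 7 of them remained when a mean of 10 FPKM was required, 1 remained with Spearman's rank correlation, and 4 remained without cell 79 and 4 without cell 96. No paired analysis was possible because all cells form 1 group and no result comes from a test. Each cell is 1 library, so a 0 in 1 of cells 79 and 96 says only that the gene was under that cell's limit.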

Other observations

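Because Usp18 and Uba7 appeared among the leading genes of cells 79 and 96, the 77 detected genes that the deposited annotation assigns to the process "defense response to virus" were counted, a choice made after the values were seen. In cell 79, 24 of them were detected and in cell 96, 17, with 5 in both, beside 12 to 36 (median 23) in the other 37 cells. These were 31.2% of the 77 in cell 79, where 18.8% of all genes were detected, and 22.1% in cell 96, where 24.0% were. Their summed level was 2427 FPKM in cell 79 and 1965 FPKM in cell 96, beside a median of 2071 FPKM in the others. Of the 77, 12 (15.6%) had their highest value in cell 79 and 7 (9.09%) in cell 96, beside 4.09% and 4.31% of all genes.

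Of the genes at least 10 times higher in both cells than in every other cell, Tspan6, a tetraspanin, was at 664 FPKM in cell 79 and 575 FPKM in cell 96 and at most at 6.30 FPKM elsewhere. Smpx, a small muscle protein, was at 225 and 10.4 FPKM and under 1 FPKM elsewhere. Prom1, which encodes the stem cell antigen CD133, was at 550 FPKM in cell 96 and 0.105 FPKM in cell 79, with a highest value of 204 FPKM in the others. These 3 genes were picked after their values were seen.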
